A study of Mus musculus with 25 samples.

Results

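The 553 peaks described here are stretches of open chromatin that were listed in every group of CD8+ T cells without a graft history and in no group of post-partum cells from sensitized mice. They were chosen from the 13527 peaks of the count table by overlap of at least 1 bp with the peak list of each group. A chosen peak overlaps an entry of the Naive, N+P C1 and N+P C5 lists and no entry in any of the 3 S+P lists (C4, C5 and C7), while the Sensitized list was left free. They make up 4.09% of all peaks and are called naive-type peaks here. In all, 7026 peaks were in the 3 lists of the naive side, and 1744 peaks were in no S+P list. Of the naive-type peaks, 276 were also in the Sensitized list and 277 were not. The lists were not of equal length, since S+P C5 had 11384 entries, Sensitized 9792, S+P C7 8799, Naive 8638, N+P C1 8602, N+P C5 8479 and S+P C4 3788. A missing entry in the short S+P C4 list therefore says less than one in the S+P C5 list.

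ATAC-seq measures open chromatin as the places where a transposase can insert sequencing adapters. It was run on T_FGS, the fetus- and graft-specific CD8+ T cells that bind an OVA:Kb tetramer, sorted from spleen and lymph nodes of female C57BL/6 mice. Graft donors and sires were 2W-OVA.BALB/c mice, which express the recombinant model antigen constitutively, so that the graft carries it, as do those fetuses that inherit it. The 25 libraries form 7 groups. Naive mice (3 libraries) had no treatment, and Sensitized mice (4 libraries) carried an allogeneic skin graft that they had rejected. N+P mice went through a semi-allogeneic pregnancy alone and S+P mice through the same pregnancy after the graft, and both were sampled soon after birth. Their cells were split by sorting into PD1- cells (C1 in N+P and C4 in S+P), PD1+CD73+ cells (C5) and PD1+CD73- cells (C7), with 3 libraries in either N+P subset and 4 in any S+P subset. PD1 is an inhibitory receptor and CD73 an ectoenzyme that makes adenosine. The subsets are thus sorting gates on cells with 1 tetramer specificity, not cell lines. The 9 Naive, N+P C1 and N+P C5 libraries are called naive-type libraries here.

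Naive T cells keep regulatory elements open around genes for quiescence, survival and lymph node homing, among them those for the transcription factors LEF1, SATB1, BACH2 and FOXP1 and the chemokine receptor CCR7. After activation many of these elements close, while elements with sites for AP-1 and T-box factors open, and parts of this state persist in memory and exhausted cells. Most such elements are enhancers, which can lie far from the gene they act on. A peak is therefore named here for the protein-coding gene with the nearest start (GENCODE vM39), which does not show that it acts on that gene. Positions are in GRCm39.

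To show what kind of sequence these elements hold, the central 300 bases are printed on the plus strand for the intronic or intergenic peak that differed most between naive-type and S+P libraries near genes of 5 lists, and for the peak that differed most of all. The lists are naive and stem-like genes (Lef1), T cell receptor signaling genes (Rasgrp1), homing genes (Cxcr4), TGF-beta pathway genes (Ski) and coinhibitory receptor and exhaustion genes (Tox), and the last peak lies nearest to Cntn5. In the TGF-beta list the peaks near Smad4 and Smad7, which differed more than that of Ski, are not printed. Capitals mark exact matches, on either strand, to 4 short strings bound by factors of T cells: CTTTGA (TCF/LEF), TGTGGT (RUNX), AGGAAGT (ETS) and CAGGTG (an E-box).
Lef1 (chr3:130961390-130961689): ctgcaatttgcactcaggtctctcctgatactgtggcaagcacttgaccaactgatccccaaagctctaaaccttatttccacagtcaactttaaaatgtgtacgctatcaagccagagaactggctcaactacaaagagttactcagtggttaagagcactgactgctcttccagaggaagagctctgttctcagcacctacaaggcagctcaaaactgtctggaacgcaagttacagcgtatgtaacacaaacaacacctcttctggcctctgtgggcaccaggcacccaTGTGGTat
Rasgrp1 (chr2:117251974-117252273): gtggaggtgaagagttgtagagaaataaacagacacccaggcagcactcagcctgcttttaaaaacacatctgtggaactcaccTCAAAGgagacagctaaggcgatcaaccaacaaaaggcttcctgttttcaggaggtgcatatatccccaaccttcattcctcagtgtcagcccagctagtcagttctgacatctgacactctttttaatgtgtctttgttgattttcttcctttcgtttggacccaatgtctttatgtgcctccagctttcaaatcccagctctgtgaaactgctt
Cxcr4 (chr1:128530304-128530603): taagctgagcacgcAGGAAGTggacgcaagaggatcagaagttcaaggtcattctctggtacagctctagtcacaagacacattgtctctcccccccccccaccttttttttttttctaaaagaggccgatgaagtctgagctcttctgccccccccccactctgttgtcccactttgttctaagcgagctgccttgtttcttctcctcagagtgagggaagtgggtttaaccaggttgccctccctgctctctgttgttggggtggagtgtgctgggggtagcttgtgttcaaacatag
Ski (chr4:155282308-155282607): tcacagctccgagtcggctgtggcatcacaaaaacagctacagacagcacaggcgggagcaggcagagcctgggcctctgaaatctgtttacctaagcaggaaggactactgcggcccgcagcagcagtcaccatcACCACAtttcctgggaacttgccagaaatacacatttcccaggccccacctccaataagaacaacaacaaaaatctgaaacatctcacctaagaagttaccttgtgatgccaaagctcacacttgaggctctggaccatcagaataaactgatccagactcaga
Tox (chr4:7455034-7455333): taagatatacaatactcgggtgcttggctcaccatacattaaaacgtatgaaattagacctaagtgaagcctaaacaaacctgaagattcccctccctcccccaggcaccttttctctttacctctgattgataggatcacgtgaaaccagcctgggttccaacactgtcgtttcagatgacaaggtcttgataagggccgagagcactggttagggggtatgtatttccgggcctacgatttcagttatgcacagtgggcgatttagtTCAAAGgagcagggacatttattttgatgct
Cntn5 (chr9:11513812-11514111): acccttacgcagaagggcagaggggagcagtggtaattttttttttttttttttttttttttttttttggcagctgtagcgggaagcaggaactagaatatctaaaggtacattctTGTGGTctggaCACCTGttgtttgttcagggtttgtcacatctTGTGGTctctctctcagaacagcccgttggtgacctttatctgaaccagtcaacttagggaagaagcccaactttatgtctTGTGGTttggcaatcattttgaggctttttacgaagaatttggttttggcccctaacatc
The Cntn5 window holds 3 matches to the RUNX string and 1 to the E-box, and each of the other windows holds 1 match. The corresponding windows of the peaks nearest to Ifngr2, of the cytokine receptor and Jak-Stat list, and to Cep57l1, the second largest difference, hold none of the 4 strings. A match is a description of the letters and not of binding.

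Depth and the behavior of single libraries bear on all values. Total counts in peaks were lowest for S+P C4 replicate 1 (2430890) and highest for S+P C5 replicate 1 (25419715), and the median raw count over the naive-type peaks ranged from 75 to 841 per library. All 553 peaks had a mean count of 100 or more over the libraries. Promoter peaks took 64.4% to 70.0% of the counts of each library. Of 5 marker genes of CD8+ T cells, 4 had a peak at their promoter (Cd8a, Cd3e, Cd3d and Cd3g). None of 7 B cell and none of 6 myeloid markers had any peak, 2 of 4 NK cell markers and 1 of 3 CD4+ T cell and Treg markers had peaks away from promoters only, and 1 of 3 erythroid markers, Klf1, had a promoter peak. No naive-type peak was nearest to a marker gene. The libraries of Sensitized and of S+P C4 did not agree among themselves at the naive-type peaks, and replicate 1 was the highest library of each S+P subset. Both facts are given with the values they touch.

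The naive-type peaks had lower counts in Sensitized cells than in naive-type libraries, lower ones again in S+P C4 and S+P C5, and the lowest in S+P C7. The rule chose them for a difference between the naive side and S+P, so these levels are a description without a test. In bulk libraries, fewer cells with an open element and less opening per cell cannot be told apart. The level of a library is given as its position, the median over the 553 peaks of log2(normalized count + 1) minus the mean of the 9 naive-type libraries. It was −0.02, −0.05 and 0.08 in the Naive libraries, −0.13, 0.05 and 0.13 in N+P C1, and −0.13, −0.01 and 0.10 in N+P C5. In Sensitized it was −1.13, −0.81, −0.12 and −0.14, so replicates 3 and 4 lay next to the naive-type libraries and replicates 1 and 2 far beneath them. In S+P C4 it was −0.19, −0.60, −1.27 and −1.06, again a wide spread. In S+P C5 it was −0.87, −1.57, −1.31 and −1.34, and in S+P C7 −1.36, −1.94, −1.92 and −1.93. Sensitized had a mean of −0.55 ± 0.50, S+P C4 one of −0.78 ± 0.48, S+P C5 one of −1.27 ± 0.29 and S+P C7 one of −1.79 ± 0.28 (SD, n = 4 each). Neighbors in this order overlapped in their libraries, and every S+P C5 and S+P C7 library lay under every naive-type library. Over all 13527 peaks the same position stayed within −0.03 and 0.03 in every library.

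**Figure D1:**
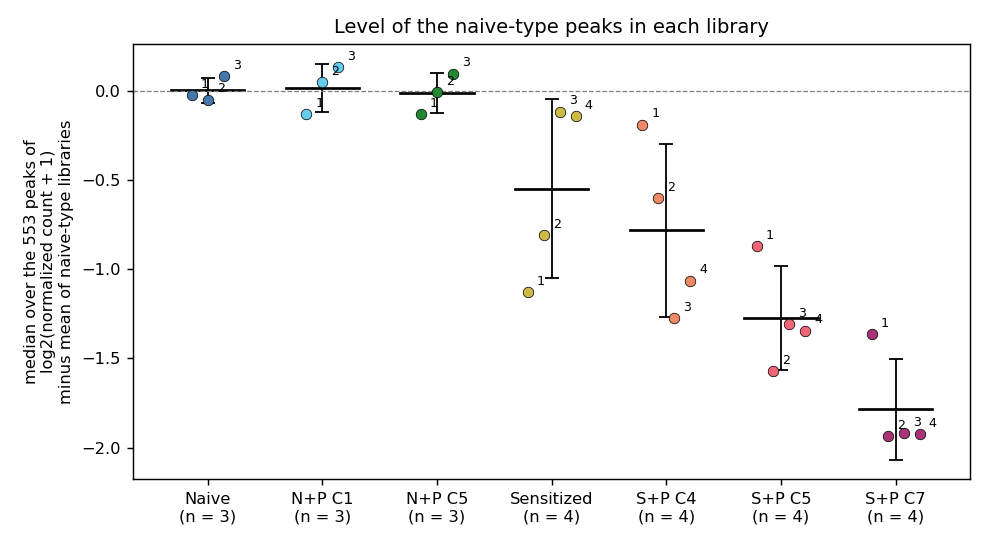
Position of each library at the 553 naive-type peaks on the log2 scale, by group; points are libraries with their replicate numbers, bars are the mean and SD, and the dashed line is the naive-type mean. The naive-type libraries sit between −0.13 and 0.13, Sensitized and S+P C4 are spread from −1.27 to −0.12, and the S+P C7 libraries lie between −1.94 and −1.36.

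The share of all counts that fell in the naive-type peaks gives the same order without a log scale. It was 3.32% to 3.85% in the naive-type libraries. In Sensitized it was 1.87%, 2.13%, 3.35% and 3.29%, and in S+P C4 3.16%, 2.53%, 1.75% and 2.04%. It ranged from 1.49% to 2.16% in S+P C5 and from 1.28% to 1.68% in S+P C7. Counted peak by peak, 503 to 519 of the 553 peaks lay under the whole naive-type range in S+P C7 replicates 2 to 4 and 490 in replicate 1. The number was 101 and 143 in Sensitized replicates 3 and 4 against 489 and 450 in replicates 1 and 2. These numbers were not counted over all peaks, some of which also lie under that range in a given library. The rule favors low S+P counts, so they only set the libraries side by side.

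Peaks differed in how far they moved. The naive-type minus S+P difference, the mean log2(normalized count + 1) over the 9 naive-type libraries minus that over the 12 S+P libraries, had a median of 1.31 (quartiles 0.79 and 1.77), against 0.0036 over all peaks. It was above 0 in 534 peaks, 1 or more in 362, 2 or more in 93, under 0.5 in 84 and 0 or less in 19. Median normalized counts were 473 over the naive-type libraries, close to the 476 of all peaks, and 217 over the S+P libraries. In 154 of the 553 peaks every naive-type library lay above every S+P library (4.93% of all peaks), and in 448 every one lay above every S+P C5 and S+P C7 library (15.2% of all peaks). The rule uses list entries that rest on these same reads, so the shares describe how sharply the lists separate the groups.

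The 10 peaks with the largest difference lay nearest to Cntn5, Cep57l1, Ccdc152, Hlcs, Urad, Cwc22rt6, Fam3c, St8sia1, Zfp217 and Eipr1. All of them are intronic or intergenic, and none was in the Sensitized list. The peak nearest to Cntn5 (chr9:11513543-11514379, 609181 bp away) had the largest, 2.83. Its normalized counts were 541, 407 and 644 in Naive, 649, 766 and 701 in N+P C1 and 633, 581 and 679 in N+P C5. They were 53.1, 110, 326 and 368 in Sensitized and 514, 208, 59.4 and 156 in S+P C4. They were 162, 52, 61.4 and 114 in S+P C5 and 115, 22.1, 24.9 and 38.1 in S+P C7. S+P C4 replicate 1 thus reached the naive-type range, and no S+P C5 or S+P C7 library came near it. The peak in an intron of St8sia1, which encodes a ganglioside sialyltransferase, had 515 to 853 normalized counts in the naive-type libraries, 71.6 to 165 in S+P C5 and 31.5 to 119 in S+P C7. The peak named for Urad lies in an intron of Flt3 (chr5:147277413-147278496), the gene of a cytokine receptor of blood progenitors, and had 508 to 713 counts in naive-type libraries and 32.1 to 129 in S+P C5.

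By normalized count per kb over the naive-type libraries, the 5 highest peaks lay in an intron of Kif1b (1072 per kb), in an intron of Zfhx3 with Pmfbp1 as nearest start (1045), 101566 bp from Tnfaip3 (1028), 97361 bp from Tle4 (1022) and in an intron of Slc6a19 (995). Tnfaip3 encodes A20, an inhibitor of NF-kB signaling, and Tle4 a corepressor that partners TCF/LEF factors. All 5 were in the Sensitized list, unlike the 10 with the largest difference. The peak nearest to Tnfaip3 had 905 to 1189 normalized counts in Naive, 534 to 891 in N+P C1 and 472 to 831 in N+P C5. It had 208, 231, 761 and 709 in Sensitized, 93.3 to 255 in S+P C5 and 66.4 to 162 in S+P C7.

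**Figure D2:**
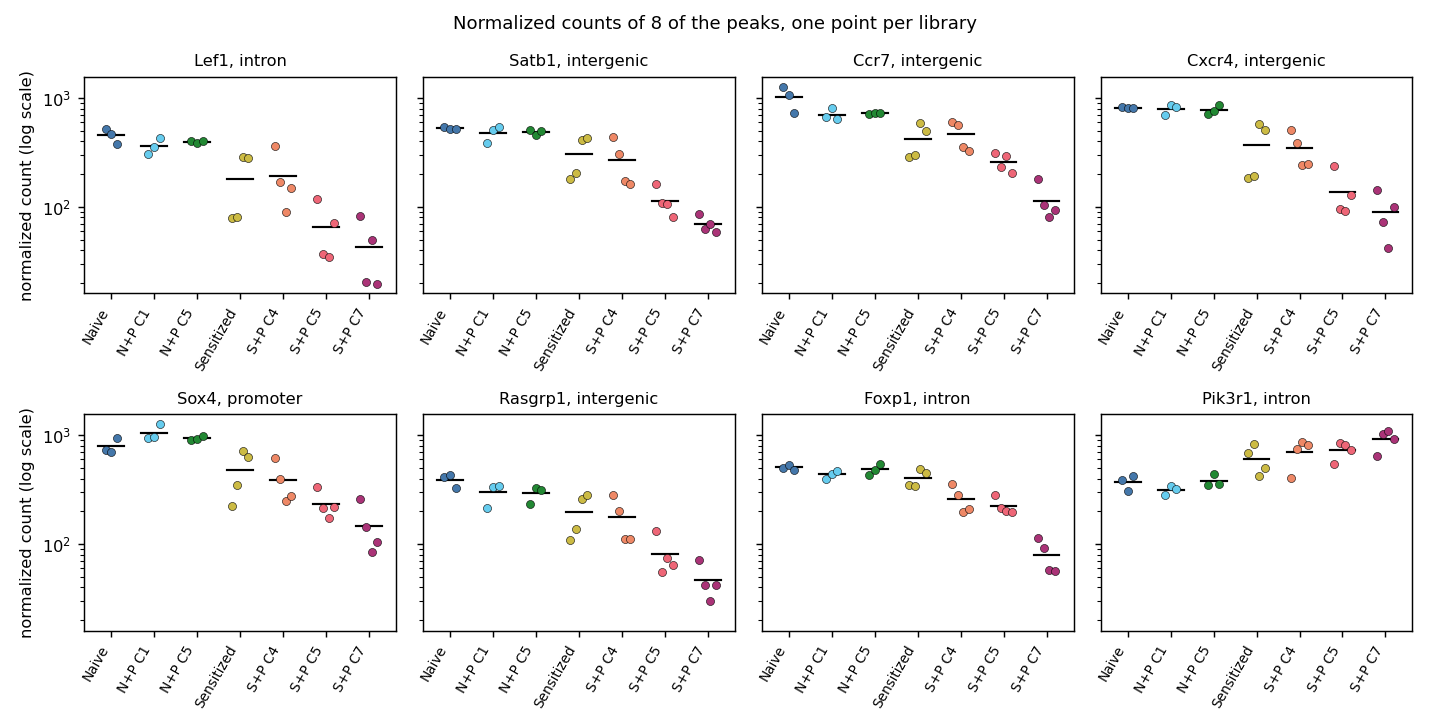
Normalized counts (log axis) of 8 of the naive-type peaks in each of the 25 libraries, in the 7 groups from Naive at the left to S+P C7 at the right; horizontal lines are group means. In 7 of the panels the S+P C7 libraries are the lowest group, whereas the intronic Pik3r1 peak is higher in S+P C7 (645 to 1105) than in Naive (310 to 423).

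At the other end, 19 peaks met the list rule with a difference of 0 or less, and the 3 lowest are given here. The peak in an intron of Pik3r1, which encodes a regulatory subunit of PI3K, had 393, 310 and 423 normalized counts in Naive and 645, 1033, 1105 and 931 in S+P C7, a difference of −1.11. The peak in an intron of Mta3 had −0.69 and the one named for Nphp4, in an intron of Kcnab2, −0.64. Just outside the rule were peaks that an S+P C4 entry alone kept out. The largest differences among them were 2.35 near Adipoq, 2.16 in an intron of Usp12 and 2.12 near Slc28a2b. The Adipoq peak had 1128 to 1200 counts in Naive, 857 and 663 in S+P C4 replicates 1 and 2 and 40.9 to 205 in S+P C7. List membership thus separates peaks whose counts are alike. The entries of the naive-type peaks were also weaker than most, since the median list score of the naive-type peaks was 468 to 478 in the naive-side lists against 597.5 to 611 for all their peaks. High values in the column read here as the q-value were general in these lists, with medians of 0.768 to 0.779 for the naive-type peaks and 0.570 to 0.580 for all their peaks. The same rule run only on entries under 0.05 in that column chose 9 other peaks, since 0 of the 553 had such an entry in an N+P list, and run with an overlap of 50% of the shorter interval it chose 553.

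Gene lists of T cell biology were used to order the peaks by role. Naive and stem-like T cell genes held 26 naive-type peaks, which is 14.4% of the 180 peaks near these genes against 4.09% of all peaks. They lie near 13 of 30 genes, 23 of the 26 had every naive-type library above every S+P C5 and S+P C7 library, as did 448 of all 553, and their median difference was 1.47 against 1.31 for all 553. Effector genes such as Gzmb, Ifng and Tbx21 held 117 peaks and none of them was a naive-type peak. T cell receptor signaling genes held 9 of 146 (6.16%), the TGF-beta pathway 6 of 62 (9.68%), cytokine receptor and Jak-Stat genes 5 of 90 (5.56%), homing and adhesion genes 4 of 76 (5.26%) and coinhibitory receptor and exhaustion genes 2 of 71 (2.82%). Ccr7 and Il7r stand in 2 lists each, so there are 48 peaks in all, and 36 of these had a difference of 1 or more. The lists were drawn up with results of these libraries known, so these shares are counts and no test was run on them.

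Among the transcription factors of the naive state, Lef1, which works with TCF1 downstream of Wnt signals and in naive cells, had 3 naive-type peaks. The intronic peak at chr3:130961159-130961920, the first of the printed sequences, had 517, 463 and 382 normalized counts in Naive and 309, 351 and 426 in N+P C1. It had 400, 382 and 405 in N+P C5, 79, 80, 284 and 279 in Sensitized and 361, 170, 90.5 and 149 in S+P C4. It had 118, 36.7, 34.5 and 70.9 in S+P C5 and 81.7, 20.4, 49.7 and 19.7 in S+P C7. Every S+P C5 and S+P C7 library was far under the naive-type range of 309 to 517, and S+P C4 replicate 1 was inside it. The second intronic peak, 80630 bp from the start, had 431 to 552 counts in naive-type libraries and 28.2 to 95.3 in S+P C7. The third lies between genes 173120 bp away and had the smaller difference of 1.45.

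Satb1, a chromatin organizer of T cells, had 5 naive-type peaks, the most of any gene. Its promoter peak, 713 bp from the start, moved least, with a mean of 1319 in Naive and 542 ± 62.6 in S+P C7 and a difference of 1.00. The 4 intergenic peaks, 43103 to 72901 bp away, had differences of 1.17 to 1.99. The outermost, chr17:52212930-52214116, had 541, 514 and 519 normalized counts in Naive, 162, 109, 105 and 79.9 in S+P C5 and 85.9, 63, 69.6 and 59.1 in S+P C7. Sox4, an HMG-box factor, had a promoter peak with 700 to 1262 counts in the naive-type libraries, 175 to 335 in S+P C5 and 84.5 to 258 in S+P C7. Bach2, a repressor that holds back effector differentiation, had 1 intronic peak with a difference of 1.58. Foxp1, a factor of quiescence, had 2 intronic peaks with differences of 1.54 and 1.56 and a promoter peak with 0.18. Klf3, Ets1 and Bcl2 peaks had differences between 0.89 and 1.09. Of the 5 promoter peaks of this list, that of Sox4 had 2.03 and the other 4 had between 0.11, at a start shared by Cd27 and Vamp1, and 1.00.

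Homing genes gave 4 peaks. Ccr7, the receptor that leads naive cells into lymph nodes, had one 8147 bp and one 13229 bp from its start. The nearer peak, chr11:99053390-99054726, had 1258, 1068 and 720 normalized counts in Naive, 664, 812 and 639 in N+P C1 and 714, 724 and 725 in N+P C5. It had 287, 298, 592 and 493 in Sensitized and 602, 567, 351 and 329 in S+P C4. It had 311, 231, 296 and 204 in S+P C5 and 179, 104, 81.2 and 92.8 in S+P C7, with no overlap between these subsets. Cxcr4, a chemokine receptor for retention in bone marrow, had a peak 10409 bp from its start with 809 to 822 counts in Naive, 91.6 to 238 in S+P C5 and 41.4 to 144 in S+P C7, and the largest difference of its list, 2.39. Gpr183, an oxysterol receptor that positions lymphocytes, had a peak in an intron of Ubac2 with a difference of 1.07.

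In the TGF-beta pathway, which restrains T cell activation, all 6 peaks had a difference above 1. Smad4, the common partner of receptor-activated SMADs, had 2 intronic peaks with 2.24 and 1.38. Smad7, the inhibitory SMAD, had 1 peak on each side at 43066 and 44943 bp with 1.93 and 1.57, the SMAD corepressor Ski an intronic peak with 1.47 and the receptor gene Tgfbr2 a peak with 1.03. The Ski peak had 485, 429 and 321 normalized counts in the Naive libraries, 267 to 338 in Sensitized, 94.9 to 142 in S+P C5 and 64.7 to 86.2 in S+P C7. Sensitized therefore lay within the naive-type range of 267 to 485 there, unlike at Lef1.

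T cell receptor signaling genes had the widest range of differences, from −0.23 up to over 2. At the upper end were a peak named for Nfatc1 (chr18:80781244-80782037, in an exon of Atp9b, 25345 bp away), peaks near Rasgrp1, which activates Ras after receptor engagement, and near Cblb, an inhibitory ubiquitin ligase. The Rasgrp1 peak had 216 to 435 normalized counts in the naive-type libraries, 110, 139, 258 and 282 in Sensitized, 55.1 to 132 in S+P C5 and 29.8 to 72.3 in S+P C7. The Cblb peak had 479 to 794 in naive-type libraries, 163 to 321 in S+P C5 and 59.6 to 179 in S+P C7. At the lower end, the promoter peaks of Lck and Nfatc1 had −0.23 and −0.05, so their missing S+P list entries were not matched by lower counts. The intronic Prkcq peak had 1.74, and the peak near Cd28, the receptor of the main costimulatory signal, had 0.48.

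Near cytokine receptor genes, the peak 8546 bp from Ifngr2, a chain of the interferon-gamma receptor, had a difference of 2.07, with 572 to 901 normalized counts in the naive-type libraries, 117 to 237 in S+P C5 and 62.9 to 150 in S+P C7. Il7r, the receptor chain for the survival cytokine IL-7, had a promoter peak with 0.74 and a peak in an intron of Spef2 with 0.99. Il6st and Jak1 peaks had 1.08 and 0.84. Of coinhibitory and exhaustion genes, a peak 463539 bp from Tox, a factor of exhausted cells, had 401 to 648 counts in naive-type libraries, 116 to 257 in S+P C5 and 61.3 to 166 in S+P C7. A peak near Izumo1r, which encodes folate receptor FR4, had a difference of 1.01 and overlapped more, with 222 to 418 counts in naive-type libraries and 100 to 226 in S+P C7.

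**Figure D3:**
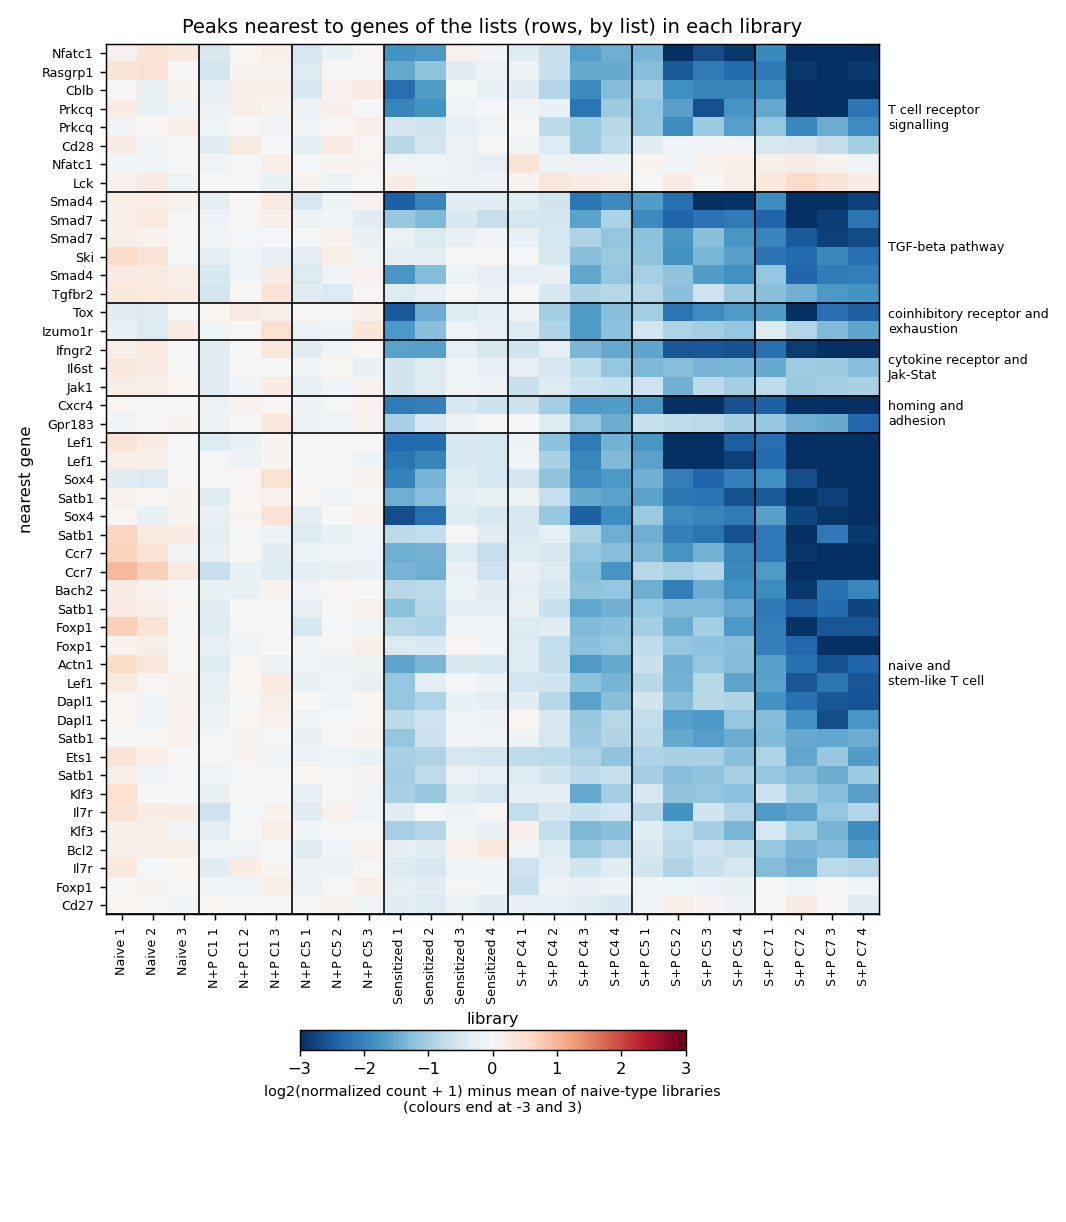
Each row is 1 of 47 of the 48 naive-type peaks near genes of the lists, each column 1 of the 25 libraries, and color gives log2(normalized count + 1) minus the mean of the naive-type libraries, cut at −3 and 3. Blue deepens from Sensitized replicates 1 and 2 and S+P C4 to S+P C7 in most rows, while Sensitized replicates 3 and 4 and S+P C4 replicate 1 stay pale and the rows of Lck, Cd27 and the promoter peaks of Foxp1 and Nfatc1 stay near 0.

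Each N+P subset was set against Naive to see how far the naive-type peaks varied after pregnancy alone. The rule asked for an entry in all 3 lists, so a peak lost or gained after pregnancy alone could not be chosen, and the counts are a description without a test. None of the 553 peaks was called in N+P C1 against Naive (DESeq2 Wald test over all 13527 peaks, Benjamini-Hochberg adjusted p under 0.1 and absolute log2 fold change over 0.9; 0.288% of all peaks called). At an unadjusted p under 0.05, 8 were higher and 16 lower in N+P C1. Peaks without a difference also pass that p at times, and such numbers were not counted over all peaks. None of the 553 was called in N+P C5 against Naive (0.177% of all peaks), with 8 higher and 21 lower at the unadjusted p, and none in N+P C5 against N+P C1 (0% of all peaks), with 0 in either direction. The edgeR quasi-likelihood test called 0 of all 13527 peaks in each, so its counts say nothing particular to the naive-type peaks. The largest negative fold change was at the Ccr7 peak 13229 bp from the start. It had 949, 784 and 570 normalized counts in Naive, 300, 421 and 375 in N+P C1 and 394, 415 and 420 in N+P C5. Neither N+P subset overlapped Naive there, and the log2 fold changes were −1.07 ± 0.40 and −0.90 ± 0.40 (SE), yet the peak was not called. These groups have 3 libraries each, and a missed threshold does not show equal levels. Without Naive replicate 3, 2 of the peaks were called in N+P C1 against Naive (181 of all 13527) and 1 in N+P C5 against Naive (157 of all).

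Sensitized cells, which met the graft and no fetus, fell into pairs of libraries. The mean position of −0.55 hides replicates 1 and 2 at −1.13 and −0.81 and replicates 3 and 4 at −0.12 and −0.14. In the fit, 69 of the naive-type peaks were closing (lower) in Sensitized against Naive (1.40% of all peaks), and the median log2 fold change was −0.47. Leaving out replicates 3 and 4 together gave 292, of which 1 was opening (higher), with 775 of all 13527 peaks closing, and leaving out replicates 1 and 2 together gave 2, with 10 of all closing, an alternative added after the data were seen. Single libraries moved the count too, to 23 without Sensitized replicate 1 or 2, to 148 and 137 without replicate 3 or 4, and to 29 and 34 without Naive replicate 1 or 2. Counts over all peaks without these single libraries are not given here, so the part particular to the naive-type peaks cannot be told. The Sensitized list, which pools its 4 libraries, held 276 of the naive-type peaks. Relative to the naive-type mean, the median over these was −0.31 in Sensitized and −1.39 in S+P C7, and over the other 277 it was −0.80 and −2.28. The list rests on the same Sensitized reads, so a higher Sensitized level at the listed peaks follows from the split.

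Single peaks show how far Sensitized kept the naive level. Among peaks with a difference of 1 or more, those near Prkce, Lrrc77 and Ccdc196 stayed highest in Sensitized relative to their own S+P mean. The Lrrc77 peak had 474, 815, 629 and 667 normalized counts in Sensitized against 494 to 765 in the naive-type libraries and 157 to 266 in S+P C7. Those nearest to Zfp36l2, Tcf7l2 and Rrn3 stood lowest. The Zfp36l2 peak, named for an RNA-binding protein, had 64, 67.5, 307 and 270 in Sensitized, 256 to 406 in the naive-type libraries and 54.7 to 152 in S+P C7. Its low mean thus came from replicates 1 and 2.

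Against their N+P counterparts, which the rule used, 155 of the naive-type peaks were closing and 1 opening (higher) in S+P C4 against N+P C1 (2.99% of all peaks closing and 9.62% opening), 374 closing and 1 opening in S+P C5 against N+P C5 (6.97% and 10.3%), and 433 closing and 2 opening in S+P C7 against N+P C5 (10.6% and 11.4%). The median log2 fold changes were −0.71, −1.22 and −1.72. For S+P C4 the closing and opening count together, 156, went to 293 without S+P C4 replicate 1, 51 without replicate 3, 77 without replicate 4 and 81 without N+P C1 replicate 3, and to 364 without S+P C4 replicates 1 and 2. Against Sensitized, none was called in S+P C4 by DESeq2 or edgeR (0.296% of all peaks closing in DESeq2, where 6 naive-type peaks were higher and 56 lower at an unadjusted p under 0.05), 228 were closing in S+P C5 (3.67%) and 373 were closing in S+P C7 (8.03%). For S+P C4 against Sensitized, the calls turned direction with the Sensitized libraries used, since 33 peaks were opening and 0 closing without Sensitized replicates 3 and 4 (125 opening and 187 closing of all 13527), and 28 closing and 0 opening without replicates 1 and 2 (530 opening and 111 closing of all). In that comparison 14 were closing without S+P C4 replicate 1 (124 of all), and 2 when Sensitized replicate 1 was left out (58 of all). Leaving out Sensitized replicates 3 and 4 moved the S+P C5 count to 29, of which 27 were closing (147 of all peaks), and the S+P C7 count to 190 (667 of all). Leaving out replicates 1 and 2 moved that of S+P C5 to 353 (832 of all). In S+P C5 against Sensitized the count was 126 without Sensitized replicate 3 and 133 without replicate 4. The numbers at an unadjusted p under 0.05 were not counted over all peaks. Where no count over all peaks stands beside a changed count, a shift at the naive-type peaks cannot be told apart from a general one. These comparisons share libraries and are given side by side without a test of the peaks.

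Among the S+P subsets, most naive-type peaks had their highest mean in S+P C4 and their lowest in S+P C7. Mean counts followed S+P C4 over S+P C5 over S+P C7 in 442 of the 553 peaks (79.9%), against 24.97% of all peaks. In S+P C5 against S+P C4, 107 were closing (2.00% of all peaks) with a median log2 fold change of −0.55, and in S+P C7 against S+P C4, 303 (5.25%) with −0.9995. The order and both counts are given without a test, because the short S+P C4 list let peaks with high S+P C4 counts pass the rule. S+P C4 replicates 3 and 4 had positions of −1.27 and −1.06, within the −1.57 to −0.87 of S+P C5. The higher mean position of S+P C4 thus came from its replicates 1 and 2. Leaving out replicates 1, 2 or 3 of S+P C4 moved the S+P C5 count to 32, 63 and 177, and leaving out replicates 1, 2 or 4 of S+P C5 moved it to 185, 52 and 68. Without S+P C4 replicates 1 and 2 it was 5, of which 3 were closing and 2 opening, and that of S+P C7 was 100. Counts over all peaks with these libraries left out are not given here. A shift at the naive-type peaks thus cannot be told apart from a general one, and no excess is read from the 3 closing peaks. S+P C4 replicate 1 is also the shallowest library, and the part of depth in its position was not tested.

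The PD1+ subsets differed from each other as well. The rule asked for absence from both of their lists, so this comparison too is a description without a test. In S+P C7 against S+P C5, 54 of the 553 naive-type peaks (9.76%) were closing and 0 opening, against 2.11% of all peaks closing, 0.266% opening, and 6.97% closing of the 1191 other peaks in no S+P list. The median log2 fold change was −0.43 (quartiles −0.74 and −0.14), with 478 of 553 peaks below 0. It was −0.17 with 840 of 1191 below 0 in the other peaks in no S+P list, and −0.002 over all peaks. A shift toward lower S+P C7 counts was thus also present in the other peaks in no S+P list, whose median count was 331 in naive-type and 224 in S+P libraries. Same-numbered S+P C5 and S+P C7 libraries deviated together, and with the replicate number as a block the count was 91, which included all 54. In 37 of the 54 no S+P C5 library overlapped an S+P C7 library, as in 67 of all naive-type peaks (5.86% of all peaks in the table). Of all 553, 337 were lower in S+P C7 in each of the 4 same-numbered pairs, a number that was not counted over other peaks. The count of called peaks was 23 without S+P C5 replicate 1, changed to 163 and 35 without S+P C7 replicate 1 or 2, and 70 without replicate 1 of both, of which 52 were among the 54. The counts of 23, 35 and 70 each held 1 opening peak. The edgeR test called 42. Counts over all peaks under these settings are not given here, so a shift at the naive-type peaks cannot be told apart from a general one.

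Of the 26 naive-type peaks of the naive and stem-like list 8 were closing (9.76% of all naive-type peaks and 2.11% of all peaks), as were 20 of all 180 peaks near these genes. The 8 lay near Ccr7, Foxp1 (2 each), Lef1, Satb1, Dapl1 and Actn1. The closing peak that ranked first in the fit was the intronic Foxp1 peak chr6:99462925-99463737. It had 485 to 537 normalized counts in Naive, 351, 344, 492 and 450 in Sensitized, and 354, 284, 198 and 211 in S+P C4. It had 280, 214, 203 and 196 in S+P C5 and 114, 91.9, 58 and 57.2 in S+P C7, with a log2 fold change of −1.48 ± 0.21 (SE). S+P C5 thus kept the level of the lower S+P C4 libraries and S+P C7 did not, without overlap. The peak 14072 bp from Dapl1, a gene expressed in naive CD8+ T cells, had 774, 476, 655 and 631 in S+P C5 and 334, 249, 200 and 194 in S+P C7 (log2 fold change −1.38 ± 0.23). S+P C4 covered the same range as S+P C5 there, with 386 to 926.

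The intronic Bicdl1 peak, with a small naive-type minus S+P difference of 0.45, had 555, 733, 534 and 485 in S+P C5, near the Naive counts of 526 to 811, and 298, 308, 222 and 163 in S+P C7 (log2 fold change −1.22 ± 0.21). The nearer Ccr7 peak had a log2 fold change of −1.18 ± 0.27 and the farther one −1.499 ± 0.36, and the latter had 271, 242, 261 and 126 in S+P C5 against 147, 56.2, 56.3 and 55.9 in S+P C7. The intergenic Satb1 peak at chr17:52185861-52188193 had 448 ± 46.9 normalized counts in S+P C5 against 212 ± 38.7 in S+P C7 (SD, n = 4), with −1.08 ± 0.23. The other 4 Satb1 peaks were not called, with −0.72 to −0.14, and neither were the intronic Lef1 peaks, which were already low in S+P C5. Smad7 gave the 1 closing peak among the 6 naive-type peaks of the TGF-beta list, with 230, 161, 228 and 163 in S+P C5 and 138, 93.6, 77.9 and 84.5 in S+P C7. Among naive-type peaks of the T cell receptor signaling list 0 of 9 were called, and of the cytokine receptor and Jak-Stat list 0 of 5, numbers too small to set apart from the 9.76% of all naive-type peaks. Of the 54 peaks, 21 were called under each of 16 other settings of tool, scaling, filter or left-out library, among them Foxp1, Ccr7 (2 each), Dapl1, Bicdl1, Satb1 and Lef1. Smad7 was called in 14 of the 16.

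**Figure D4:**
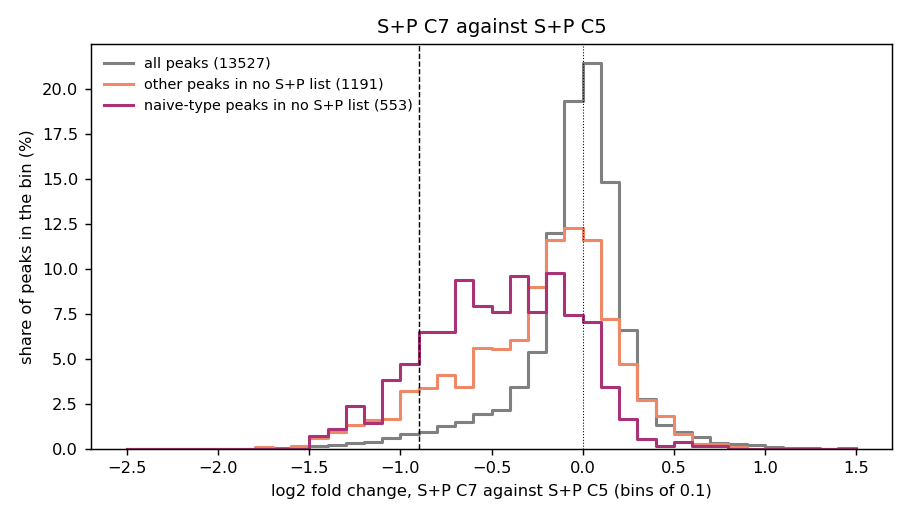
Share of peaks in each bin of 0.1 of the log2 fold change of S+P C7 against S+P C5, for the 553 naive-type peaks, the 1191 other peaks in no S+P list and all 13527 peaks; the dashed line is the fold threshold of −0.9 and the dotted line is 0. The naive-type peaks are shifted to the left with a median of −0.43, the other peaks in no S+P list less so with −0.17, and all peaks center on 0.

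The naive-type peaks were rarely promoters. By their midpoints, 108 (19.5%, Wilson interval at 95% from 16.4% to 23.0%) lay within 1000 bp of a protein-coding transcript start, against 56.7% of all peaks. Introns held 41.6%, regions between genes 33.5% and exons 5.42%. Absence from S+P lists goes with this makeup in general, since 23.2% of all peaks in no S+P list were promoter peaks. The promoter peaks moved less, with a median of −0.84 in S+P C7 relative to naive-type libraries against −1.997 for the 445 distal ones, and 4 of them were among the 54 closing peaks in S+P C7 against S+P C5. These 4, named after their values were seen, were at Qpct, Gpr15, Trpm1 and Pgpep1l, of which Gpr15 encodes a homing receptor of T cells. Peak lengths ranged from 184 to 4262 bp, with a median of 874 against 963 for all peaks. Distances to the nearest gene start had a median of 23095 bp against 1595.5, and 91 peaks lay over 100000 bp away.

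The peaks were spread over many genes. They had 486 nearest genes, of which 55 had 2 or more peaks and 8 had 3 or more. Beside Satb1 with 5 these were Otulinl and Cog6 with 4 and Maml2, Foxp1, Slc12a7, Lef1 and Btg1 with 3, of which Maml2 encodes a Notch coactivator and Btg1 an antiproliferative factor of quiescent T cells. Peaks near 1 gene may share an element or a target and are not independent. For comparison, 731 peaks were in the Sensitized, S+P C5 and S+P C7 lists and in no list of the naive side. Their 633 nearest genes included 51 of the 486 (10.5% of the one set and 8.06% of the other), among them Bach2, Ets1, Foxp1, Cblb, Rasgrp1, Smad7 and Tnfaip3. These genes thus had peaks of both kinds.

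Sequence composition was compared over all peaks and over distal peaks alone. The GC content of the central 300 bases had a median of 48.7% against 57.3% for all peaks, and of 47.0% against 48.7% among distal peaks. In the 445 distal windows, the TCF/LEF string CTTTGA was found in 30.6% (26.5% to 35.0%), against 25.5% of all 5852 distal windows, 30.1% of other distal windows in no S+P list and 19.2% of distal windows of the 731 graft-experienced peaks. The E-box CAGGTG was in 27.6%, 21.8%, 24.8% and 17.3% of the same sets, and the RUNX string TGTGGT in 42.9%, 40.6%, 39.9% and 50.8%. The AP-1 string TGANTCA was in 8.09% (against 15.9%, 11.6% and 22.8%) and the T-box string AGGTGTG in 5.39% (against 9.16%, 8.05% and 12.7%). The TCF/LEF and CAGGTG strings were thus found in a larger share, and the RUNX, AP-1 and T-box strings in a smaller share, of these windows than of the graft-experienced ones. AGGAAGT for ETS was in 23.6% against 21.4% of all distal windows, TGGAAA for NFAT in 24.3% against 25.3%, and AGGGGGC for the CTCF core in 2.70% against 5.04%. E-box and T-box strings can share letters, as can ETS and NFAT strings.

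Other strings were counted in the same way. CCACCC, a string for KLF factors, some of which keep T cells quiescent, was found in 25.6% against 29.5% of all distal windows and 31.9% of the graft-experienced ones. Against all distal windows, GTAAACA (FOXO) was in 5.62% against 5.16%, AAGGTCA (NR4A) in 4.27% against 4.90%, TTCNNNGAA (STAT5) in 11.01% against 10.3% and the E-box CAGCTG in 19.6% against 18.8%. AGATAA, a string for factors of the GATA family, was in 15.7% against 13.6%, the IRF string in 7.19% against 6.39%, TGGGAA (IKZF) in 21.1% against 21.5% and CNGTTG (MYB) in 41.3% against 38.98%. All shares are descriptions of letters in 300-base windows on both strands, and no match was tested for binding.

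**Figure D5:**
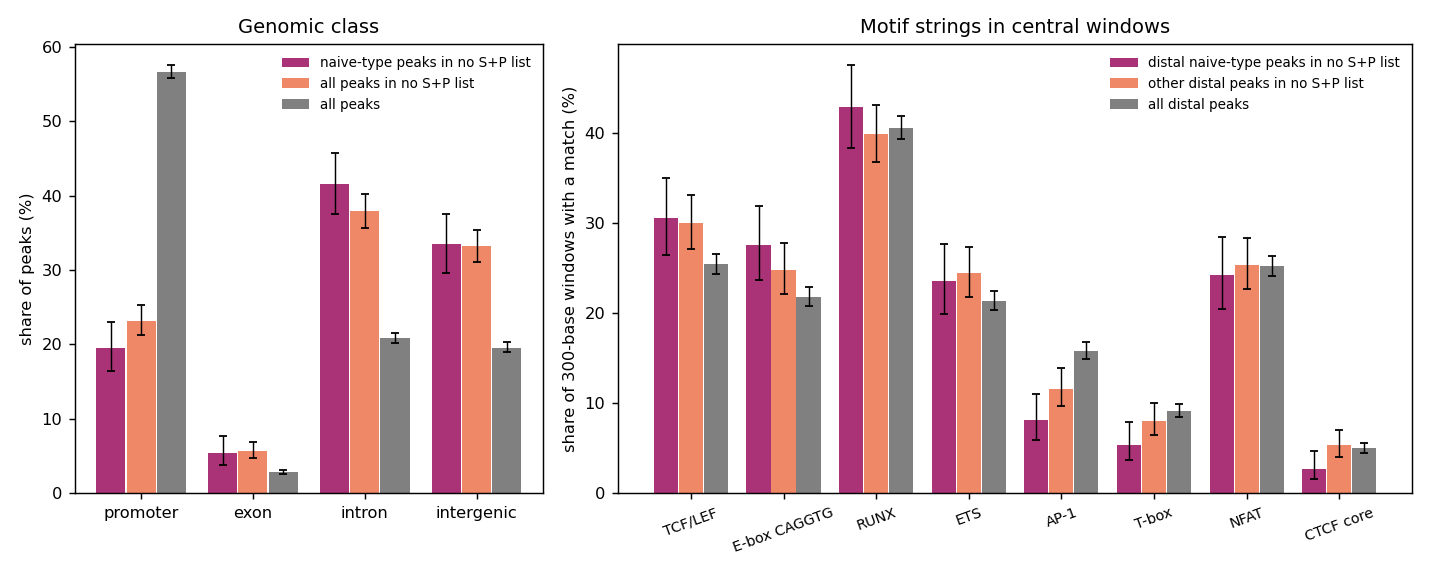
Left, share of peaks by genomic class for the naive-type peaks, all peaks in no S+P list and all peaks; right, share of central 300-base windows of distal peaks with at least 1 match to each of 8 strings; error bars are Wilson 95% intervals and cover counting error only. Promoters make up 19.5% of the naive-type peaks against 56.7% of all peaks, and the AP-1 string was found in 8.09% of their distal windows against 15.9%.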

How the data were processed

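ATAC-seq libraries of sorted T_FGS were compared at the peaks of 1 count table. The authors trimmed reads with cutadapt 3.4, aligned them with Bowtie2 2.2.9 to GRCm39, removed PCR duplicates with Picard 2.21.8, called peaks per library with Genrich 0.6.1 and kept, with ChIP-R, those reproducible within a group. The 7 deposited lists thus pool the libraries of a group, and each entry has a score, a signal value, a p-value and a q-value from the authors, of which the score and the q-value were used. The deposited counts are reads per peak after merging the lists with bedtools 2.27.1, raw and not normalized. No column of the count table lacked a sample.

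Scripts used R 4.3.3 and python 3.11.15 (numpy 2.4.6, pandas 2.3.3, scipy 1.17.1). DESeq2 1.42.0 was fitted once to all 25 libraries and 13527 peaks with 1 term, the group, size factors by the median of ratios, a local dispersion trend, no independent filter and fold changes not shrunken, with the Wald test and Benjamini-Hochberg adjustment over all peaks. Calls needed, after the study's methods, a log2 fold change beyond 0.9 in either direction with an adjusted p under 0.1. Normalized counts are counts divided by the size factor, and log2 values used a pseudocount of 1. The fit was tested on simulated counts. Alternatives were the edgeR 4.0.16 quasi-likelihood test, total counts or cyclic loess offsets (limma 3.58.1), the default independent filter, a mean count of 100 or more, an adjusted p under 0.05, a fit to 2 groups, the replicate block and leaving out libraries.

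The replicate numbers were checked across groups. Deviations of same-numbered libraries from their group means correlated across peaks in each pair with r from 0.522 to 0.771 for S+P C7 and S+P C5, from 0.103 to 0.572 for S+P C5 and S+P C4 and from 0.108 to 0.400 for N+P C5 and N+P C1, which were taken as paired. Libraries with other numbers had a median r of −0.272, −0.133 and −0.0946 in these comparisons. S+P C5 replicate 2 nevertheless had 0.440 with S+P C4 replicate 3 against 0.103 with S+P C4 replicate 2. S+P C4 replicate 3 had 0.773 with Sensitized replicate 1. For S+P C4 such correlations thus do not single out the same number. The pairing comes from these data, since the labels do not say what a number marks. Within groups, no pair of libraries agreed within sampling noise (lowest chi-square per degree of freedom 2.81). The sources do not say which libraries share a mouse, so calls measure only the spread between these libraries, which may in part be technical.

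Both the peaks and the gene lists were chosen with earlier results of these data known. Named were the 10 largest naive-type minus S+P differences, the 5 highest naive-type levels per kb, up to 4 peaks per gene list, up to 3 called peaks in each direction in the comparisons within the naive side and in S+P C7 against S+P C5, the 3 smallest differences, 3 peaks just outside the rule and the extremes in Sensitized. Comparisons within the naive side and among the S+P subsets had been planned as tests and are given as description, because the rule used the lists of both groups in each. One peak of the gene lists is counted but not reported singly here. Intervals cover counting error only.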

Additional observations from a re-analysis of the deposited data

Results flagged for a closer look

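Named peaks and positions were screened for libraries far from the other 3 of their group, in 200 groups of 4 libraries. In 17 of them (8.5%, where chance gives about 1 in 20) 1 library stood apart by the size of its gap relative to the range. It was replicate 1 of S+P C5 or of S+P C7 each time, and always on the high side, toward the naive-type level. The 200 groups share libraries and are not independent, so no excess over chance is read from the 8.5%.

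In S+P C5, replicate 1 stood apart at the peaks nearest to Ccdc152 (91.1 normalized counts), St8sia1 (165), Zfp217 (249), Tnfaip3 (255), Lef1 (the intronic peak 80630 bp from the start, 159), Nfatc1 (the peak in an exon of Atp9b, 201), Cblb (321), Ifngr2 (237) and Tcf7l2 (328). In S+P C7, replicate 1 stood apart at Ccdc152 (86.8), Urad (119), Tnfaip3 (162), Tle4 (276), the same Nfatc1 peak (139), Cblb (179) and the farther Ccr7 peak (147). Over all 553 naive-type peaks its position of −1.36 stood apart from −1.94, −1.92 and −1.93 in the other S+P C7 libraries.

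S+P C5 replicate 1 is the deepest library with 25419715 counts and S+P C7 replicate 1 has 9524894, within the range of its group. Whether depth has a part in these values was not tested.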

How the results depend on the processing

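N+P C5 against N+P C1 gave 0 called naive-type peaks under each alternative. The default independent filter left 48 of the 553 peaks with an adjusted p in N+P C1 against Naive and 32 in N+P C5 against Naive. Among comparisons with called peaks, closing peaks outnumbered opening ones under each alternative, and the exception was S+P C4 against Sensitized, which had no call as reported. In N+P C1 against Naive the count of 0 became 2 in a fit to the 2 groups and with the replicate block, with 0 to 2 when libraries were left out. In N+P C5 against Naive it became 1 in the fit to 2 groups, with 0 to 1 when libraries were left out. With the replicate block, S+P C7 against S+P C5 went from 54 to 91 and Sensitized against Naive from 69 to 203, the latter between libraries that share only a number. The pairing moved no other count by over 1.5 times. Loess offsets moved S+P C4 against N+P C1 to 238, of which 237 were closing (745 of all peaks closing). An adjusted p under 0.05 moved Sensitized against Naive to 45, all closing (132 of all peaks closing). Leaving out 1 library gave 23 to 163 for S+P C7 against S+P C5, 32 to 185 for S+P C5 against S+P C4, 225 to 347 for S+P C7 against S+P C4, 51 to 293 for S+P C4 against N+P C1, 23 to 148 for Sensitized against Naive, 0 to 14 for S+P C4 against Sensitized, 126 to 301 for S+P C5 against Sensitized and 335 to 395 for S+P C7 against Sensitized. Pairs of libraries were left out only after the data were seen. Without S+P C4 replicates 1 and 2 the count was 5 (3 closing and 2 opening) for S+P C5 against S+P C4, 100 for S+P C7 against S+P C4, 364 for S+P C4 against N+P C1 and 66 for S+P C4 against Sensitized. Without Sensitized replicates 3 and 4 Sensitized against Naive gave 292, and S+P C7, S+P C5 and S+P C4 against Sensitized gave 190 (all closing), 29 (27 closing) and 33 (all opening). Without Sensitized replicates 1 and 2 they gave 2, and 353 (S+P C5) and 28 (S+P C4), all closing. The rule run on list entries with a q-value under 0.05 chose 9 other peaks. Counts over all peaks are not given beside most of these counts. A shift at the naive-type peaks thus cannot be told apart from a shift over all peaks. The cause of these shifts was not tested.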
